A study of Mus musculus with 6 samples.

Results

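The genes described here encode the vacuolar proton pump (V-ATPase) and the transporters, enzymes and regulators that handle acid and base in the kidney. The members were all rows of the count table whose symbol begins with Atp6v or Atp6ap, 26 in all, and 15 genes named singly, from the bicarbonate exchanger gene Slc4a1 to the transcription factor gene Hmx2. Together they made 41 of 25031 genes, and 38 of the 41 had enough counts to be tested, among 15416 genes. RNA was sequenced from kidneys of wild-type (WT) male C57BL/6 mice aged 7 to 8 weeks. Both kidneys had been made ischemic for 23 minutes at a body temperature of 37 °C and then reperfused, a model of acute kidney injury. A vehicle group of 3 libraries came from mice given saline by vein after the injury. A CePPy group of 3 came from mice given 5 mg/kg of (+)CePPy, positively charged polypyrrole nanoparticles doped with cerium. Every animal carried the injury, no uninjured kidney was analysed here, and when the kidneys were taken is not stated in the labels.

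The V-ATPase uses ATP to move protons across membranes. Its peripheral V1 sector burns ATP, and its membrane sector V0 carries the protons. Every cell uses it to acidify lysosomes and endosomes, through subunit isoforms made in nearly all tissues. Intercalated cells of the collecting duct also place it in the plasma membrane, with isoforms made in few cell types, and there it secretes acid into the urine (type A cells) or into the blood (type B cells). Bicarbonate exchangers on the opposite membrane, carbonic anhydrases that hydrate CO2, and ammonia transporters complete the process. Earlier in the nephron, the proximal tubule reclaims most filtered bicarbonate with its own carbonic anhydrases and a sodium-bicarbonate cotransporter. Inherited loss of the B1 or a4 subunit of the pump, or of the exchanger encoded by Slc4a1, causes distal renal tubular acidosis.

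Libraries held 29762157 to 37415213 counts. Values below are CPM, counts scaled to a common library size after TMM correction in edgeR, and 1 count was worth 0.0266 to 0.0333 CPM. Markers of podocytes, thick limb, distal tubule, collecting duct and proximal tubule (Nphs1, Umod, Slc12a1, Slc12a3, Aqp2 and Lrp2) were all detected, as the kidney label requires. All 6 had higher values in CePPy, with a median log2 fold change of 0.62, and 3 did so without overlap between groups. Over all genes tested, 50.5% had higher values and 12.3% were higher without overlap. CePPy 1 lay farthest from the vehicle libraries on the first principal component and CePPy 2 nearest, at 56.8 and 3.8 against -29.8 to -18.1. The same spread ran through many members below. Whether each library is its own animal is not stated in the labels, so the p-values reflect library-to-library spread that may be technical. In bulk kidney tissue, fewer cells of a type and less RNA per cell cannot be told apart.

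Promoters of the members were searched for short motifs, with the restricted and the ubiquitous isoforms side by side. RefSeq promoter windows (GRCm38.p6, 250 bases before to 50 after a transcript start) were found for 28 of the 41 members, in 33 windows. The forkhead motif GTAAACA, a form of the sequence that Foxi1-type factors bind, was searched on both strands. It occurred in 1 of 4 windows of intercalated-cell subunits, that of Atp6v1b1, in 0 of 13 windows of ubiquitous subunits and in 3.65% of all 32851 windows. The related ATAAACA occurred in 0 of the 33 member windows and in 4.6% of all windows. TCACGTGA, the core of the CLEAR element bound by the lysosomal regulator TFEB, occurred in 3 of 13 windows of ubiquitous subunits, those of Atp6v1a, Atp6v0d1 and Atp6v0e. It was found in 0 of 4 windows of intercalated-cell subunits and in 0.974% of all windows. A motif of the TFCP2L1 type, CCAG repeated after a spacer and searched on both strands, occurred in the windows of Atp6v0a4 and Car14 and in 3.44% of all windows. These matches are letters found in a window and do not show that a factor binds there. The stretches before the start that hold no annotated exon are printed for 1 gene of each kind, with the motif in capitals. That of Atp6v1b1 (chr6:83742767-83742989, plus strand) holds the forkhead motif on the other strand, from 98 bases before the start. That of Atp6v1a (chr16:44139306-44139461, minus strand), whose RefSeq start used here lies within the annotated gene, holds the CLEAR core from 132 bases before that start.
Atp6v1b1: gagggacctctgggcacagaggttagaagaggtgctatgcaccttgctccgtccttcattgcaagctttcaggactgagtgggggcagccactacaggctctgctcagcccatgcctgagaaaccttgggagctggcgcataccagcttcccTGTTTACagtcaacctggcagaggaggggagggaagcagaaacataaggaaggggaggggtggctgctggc
Atp6v1a: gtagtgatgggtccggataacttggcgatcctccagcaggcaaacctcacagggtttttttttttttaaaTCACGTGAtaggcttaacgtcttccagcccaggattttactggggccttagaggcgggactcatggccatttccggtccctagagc

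Not one of the 38 tested members passed the edgeR quasi-likelihood test over all genes at an adjusted p under 0.05, where 1 of 15416 genes passed (0.00649%, lower in CePPy). With limma-voom 0 members were called too, again with 0.00649% of genes called. In edgeR, 13 members reached an unadjusted p under 0.05, 10 higher and 3 lower. The background over all genes tested was 9.65% higher and 9.37% lower. DESeq2 called 8 members, 6 higher and 2 lower. It called 4.96% of the 20034 genes it tested (2.56% higher, 2.4% lower). Of the 15416 genes tested in edgeR, which include the 38 members, DESeq2 called 508 higher and 481 lower. Sample weights in limma-voom gave 1 member higher and 1 lower, where 0.96% and 1.32% of genes were called. Without CePPy 2, edgeR called 6 members, all higher, against 5.17% of genes (2.98% higher, 2.19% lower). Without CePPy 1 it called 0 members and 0.0128% of genes (0.00638% in each direction). The 2 groups had no shared range for 11 members higher and 5 lower, against 12.3% and 14% of all genes tested. Directions were not evenly spread over the roles. All 15 members that are not pump subunits had a fold change above 0, as had all 5 intercalated-cell subunits. Of the 16 ubiquitous subunits, 11 lay below 0. Over all genes tested, 50.5% lay above 0. The 6 kidney segment markers given above also all lay above 0.

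**Figure D1:**
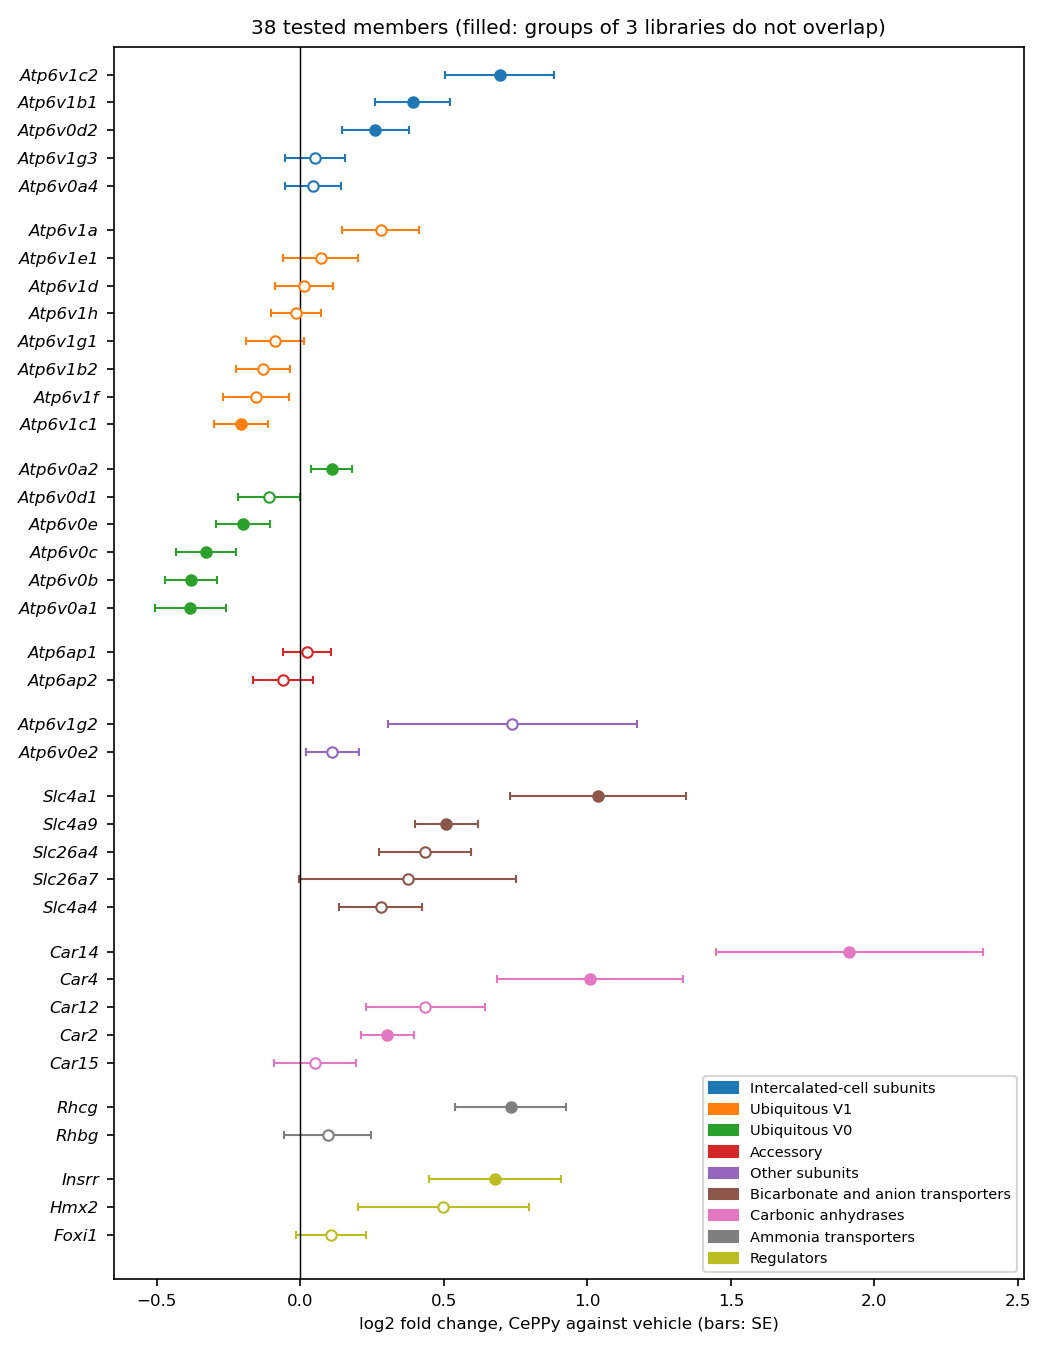
Log2 fold change (CePPy against vehicle, horizontal axis) of the 38 tested members, with the SE as bars, grouped and coloured by role. Filled points mark members whose 3 CePPy and 3 vehicle libraries did not overlap. The 15 members that are not pump subunits all lie right of 0, from 0.05 for Car15 to 1.91 for Car14, and 5 of 6 ubiquitous V0 subunits lie left of it.

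The subunits of restricted expression were Atp6v1b1, Atp6v1c2 and Atp6v1g3 of the V1 sector and Atp6v0a4 and Atp6v0d2 of the V0 sector. Their median log2 fold change was 0.26, against 0.00 over all genes tested, and the 5 were not alike. The median was 0.15 without CePPy 1. Atp6v1c2, Atp6v1b1 and Atp6v0d2 were higher in each CePPy library than in any vehicle library, while Atp6v1g3 and Atp6v0a4 overlapped between the groups. Their mean level relative to the vehicle mean was 0.48, 0.10 and 0.27 log2 units in CePPy 1, 2 and 3. The vehicle libraries lay at 0.05, -0.12 and 0.07.

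Atp6v1b1 (chromosome 6, 83742990 to 83758855, plus strand, GRCm38) encodes B1, the ATP-binding regulatory subunit whose promoter is shown above. It measured 41.2, 37.5 and 41.1 CPM in the vehicle libraries and 62.4, 43.5 and 51.3 in the CePPy libraries. The groups did not overlap, and CePPy 2 lay close above vehicle 1. The means were 39.9 ± 2.12 and 52.4 ± 9.52 CPM (SD, n = 3), giving a log2 fold change, 0.39 (SE 0.13), that edgeR put at an adjusted p of 0.177. It was 0.25 without CePPy 1, and 0.51 without CePPy 2, where the edgeR adjusted p was 0.0467.

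Atp6v1c2 (chromosome 12, 17284721 to 17329359, minus strand) encodes C2, an isoform of the subunit that joins and releases V1 and V0. It gave the largest difference of the 5, with 9.86, 7.68 and 9.12 CPM in vehicle and 17.9, 11.2 and 14.1 in CePPy. All CePPy libraries lay above the highest vehicle library. In log2 terms it differed by 0.70 (SE 0.19, edgeR adjusted p = 0.138), DESeq2 called it (adjusted p = 0.0267), and without CePPy 2 the edgeR adjusted p was 0.0413. Its exons overlap those of Pdia6, a more abundant gene on the opposite strand, which measured 236 and 285 CPM in the groups (0.27, SE 0.10). Strand use in counting is not stated in the labels, so the share of Pdia6 reads in the Atp6v1c2 count was not tested.

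Atp6v0d2 (chromosome 4, 19876841 to 19922605, minus strand) encodes d2, the subunit that couples the rotor to the membrane ring. It measured 25.3, 23.1 and 24.2 CPM in vehicle and 33.5, 25.6 and 28.0 in CePPy. CePPy 2 exceeded the highest vehicle library only slightly, and the log2 fold change was 0.26 (SE 0.12, edgeR adjusted p = 0.271), or 0.15 without CePPy 1. Osteoclasts and macrophages also make d2. Of 11 marker genes of those cells, 9 were tested, 2 had higher and 7 lower values, and Dcstamp was at 0. Their summed level was 278 to 305 CPM in vehicle and 238 to 297 in CePPy, so that the groups overlapped.

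Atp6v0a4 (chromosome 6, 38048483 to 38124586, minus strand) encodes a4, the membrane subunit through which protons pass, which the proximal tubule also makes. It measured 239, 214 and 247 CPM in vehicle and 253, 217 and 252 in CePPy, with CePPy 2 within the vehicle range (log2 fold change 0.04, SE 0.10, edgeR adjusted p = 0.837). Its exons overlap D630045J12Rik on the same strand, at 66.4 and 57.8 CPM, and Tmem213 on the opposite strand, at 33.7 and 34.0 CPM. Atp6v1g3 (chromosome 1, 138273738 to 138289462, plus strand), for the kidney isoform of the stalk subunit G, measured 26.4, 26.1 and 31.6 CPM in vehicle and 30.7, 29.0 and 27.4 in CePPy. All its CePPy values lay within the vehicle range (log2 fold change 0.05, SE 0.10, edgeR adjusted p = 0.824).

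**Figure D2:**
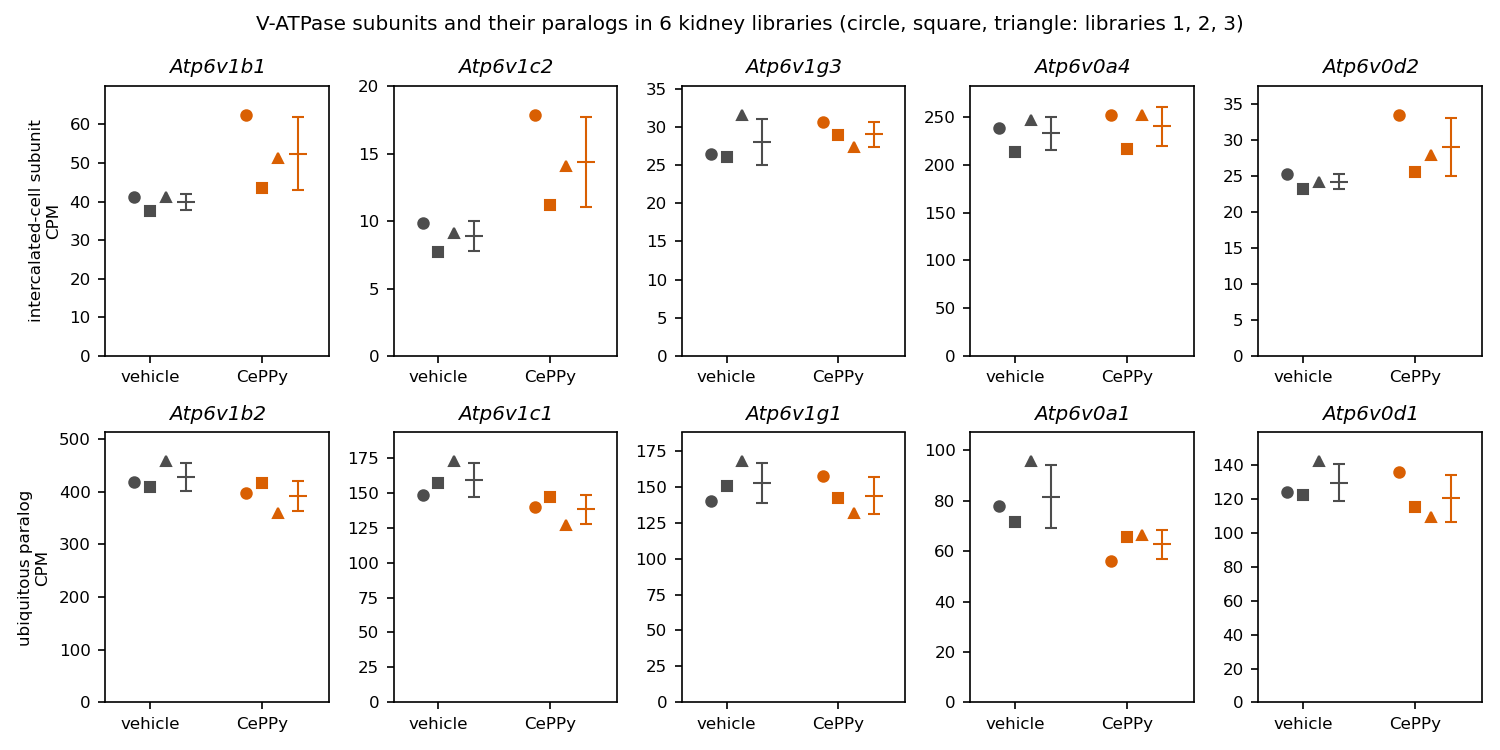
CPM (vertical axes, from 0) of the 5 intercalated-cell subunits (top) and their ubiquitous paralogs (bottom) in each library, with the mean and SD beside the points. Atp6v1b1, Atp6v1c2 and Atp6v0d2 are higher in each CePPy library, with CePPy 1 highest and CePPy 2 (square) nearest to vehicle, while Atp6v1c1 and Atp6v0a1 are lower in each.

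The ubiquitous paralogs of these 5 genes had log2 fold changes below 0. Atp6v1b2, for B2, the B subunit of most cells, measured 418, 408 and 457 CPM in vehicle and 397, 416 and 360 in CePPy. CePPy 2 lay within the vehicle range (log2 fold change -0.13, SE 0.09, edgeR adjusted p = 0.489). Atp6v1c1, for C1, measured 148, 157 and 172 CPM in vehicle and 140, 147 and 127 in CePPy. These groups did not overlap, by a gap of about 1 CPM between vehicle 1 and CePPy 2 (-0.21, SE 0.09, edgeR adjusted p = 0.279). Atp6v0a1, for a1, showed a wider gap, at 77.7, 71.6 and 95.6 CPM in vehicle against 56.1, 65.6 and 66.3 in CePPy. Every CePPy library was below every vehicle library, and vehicle 3 was the highest (-0.38, SE 0.12, edgeR adjusted p = 0.169). Without vehicle 3 it was -0.25. For Atp6v1g1 (G1) and Atp6v0d1 (d1) the groups overlapped. Atp6v1g1 measured 139.9, 150.1 and 168 CPM in vehicle and 157, 142 and 132 in CePPy (-0.09, SE 0.10, edgeR adjusted p = 0.671). Atp6v0d1 measured 125, 123 and 142 CPM in vehicle and 136, 116 and 109 in CePPy (-0.11, SE 0.11, edgeR adjusted p = 0.616).

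Ratios of the isoforms within a library do not depend on how libraries are scaled. The log2 ratio of the restricted isoform to its paralog was higher in each CePPy library than in each vehicle library for all 5 pairs. The B1 to B2 ratio was -3.34, -3.44 and -3.47 in vehicle and -2.67, -3.26 and -2.81 in CePPy. The groups differed by 0.51, a 1.42-fold shift. The C2 to C1 ratio shifted most, from -3.90, -4.34 and -4.23 to -2.96, -3.71 and -3.17, a difference of 0.88 or 1.84-fold. The a4 to a1 ratio went from 1.62, 1.58 and 1.37 to 2.17, 1.73 and 1.92, a difference of 0.42 that came mainly from lower Atp6v0a1. It depends on a1 as the partner. The other ubiquitous a isoform gene, Atp6v0a2, had a log2 fold change of 0.11, above the 0.04 of Atp6v0a4. The a4 to a2 ratio was not among the 5 pairs. How often ratios of other gene pairs separate the groups was not tested. The d2 to d1 ratio went from -2.30, -2.40 and -2.55 to -2.02, -2.17 and -1.97, a difference of 0.36. The G3 to G1 ratio moved least, by 0.14, from -2.40, -2.52 and -2.40 to -2.35, -2.29 and -2.26. A two-sided exact permutation test gave p = 0.1 for each of the 5 ratios, also after adjustment over the 5, which is the smallest p that 3 against 3 libraries allow. The ratios therefore could not pass a threshold of 0.05, and the pairs share the same libraries.

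**Figure D3:**
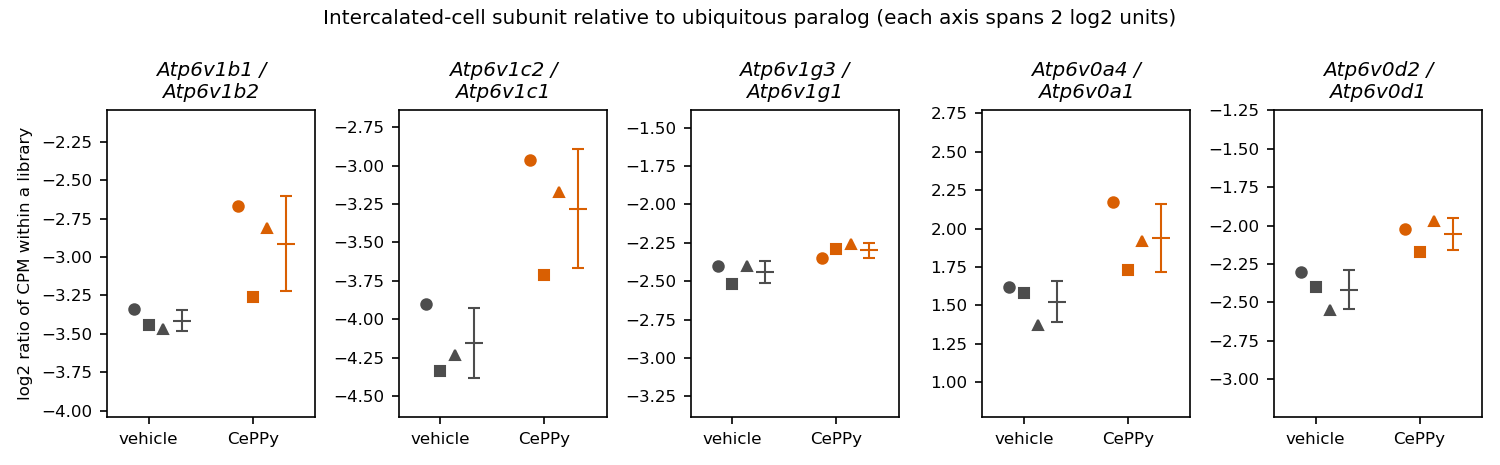
Log2 ratio of CPM of each intercalated-cell subunit to its ubiquitous paralog within a library (vertical axes, each spanning the same width), with the mean and SD beside the points. The CePPy points lie above the vehicle points in all 5 panels, by 0.88 on average for C2 to C1 and 0.14 for G3 to G1.

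Levels of different genes were compared per kb of exon. In vehicle kidneys B1 was a small part of the B subunit transcript, at 9.12 ± 0.484 CPM per kb against 80.6 ± 4.92 for B2 (SD, n = 3). That is 10.2% of the pair in vehicle and 13.97% in CePPy. The C2 share was 12.6% and 21.1%, the G3 share 9.95% and 10.9%, and the d2 share 11% and 13.7%. These shares depend on the length used. Per kb of the longest transcript, the vehicle share was 11.67% for B1, 14.94% for C2, 9.95% for G3 and 10.72% for d2. For the a subunit the order was the reverse. Atp6v0a4, at 46.9 ± 3.53 CPM per kb, exceeded Atp6v0a1 at 12.45 ± 1.90 and held 79.1% of that pair in vehicle and 83.4% in CePPy. Atp6v0a2, for the a2 isoform of the Golgi and endosomes, was at 12.6 ± 0.106 CPM per kb in vehicle, within the spread of Atp6v0a1. The highest levels of any member in vehicle were those of Atp6v0c, the proton-carrying ring subunit, at 168 ± 10.2 CPM per kb, and of Car2 at 163 ± 4.75, which overlapped.

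The 16 ubiquitous and accessory subunits had a median log2 fold change of -0.10, with a range from -0.38 to 0.28. It was -0.027 without vehicle 3 and -0.032 without CePPy 3. The median of the 5 intercalated-cell subunits lay 0.36 above that of all 16. By library, the mean level of the restricted subunits less that of the ubiquitous ones was 0.46, 0.25 and 0.43 in CePPy 1, 2 and 3 and 0.07, -0.05 and -0.02 in vehicle, relative to the vehicle mean. CePPy 2 was nearest to vehicle here too, but above all 3 vehicle libraries.

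The ubiquitous subunits were split by sector after the values were seen. Of the 6 in the V0 sector, 5 were lower, 4 of them without overlap, where 14% of all genes tested were lower without overlap. Their median was -0.26. It was -0.18 without CePPy 3. The mean level of the 6 relative to vehicle was -0.15, -0.22 and -0.28 in CePPy 1, 2 and 3 and -0.02, -0.07 and 0.09 in vehicle. Thus, unlike for the acid-base transporters below, CePPy 1 was not the library farthest from vehicle. Atp6v0b, for the c'' ring subunit, measured 177, 171 and 197 CPM in vehicle and 149, 137 and 133 in CePPy. All CePPy libraries were well below the lowest vehicle library. It differed by -0.38 on the log2 scale (SE 0.09, edgeR adjusted p = 0.117), and both DESeq2 (adjusted p = 0.00863) and limma-voom with sample weights (adjusted p = 0.0425) called it. Exons of Atp6v0b overlap the annotated antisense gene Gm12841 on the opposite strand, and the share of reads from Gm12841 was not tested. Atp6v0c measured 549, 545 and 607 CPM in vehicle and 497, 454 and 405 in CePPy, without overlap. Its log2 fold change was -0.33 (SE 0.10, edgeR adjusted p = 0.168, DESeq2 adjusted p = 0.0499), and 2 annotated pseudogenes carry its name and could share its reads. Atp6v0e, for a small subunit of the membrane sector, measured 127, 121 and 115 CPM in vehicle and 113, 110.1 and 93.5 in CePPy. The groups did not overlap, although CePPy 1 and vehicle 3 were close (-0.20, SE 0.09, edgeR adjusted p = 0.300), and the value was -0.11 without CePPy 3. Atp6v0a2 went the other way, at 85.7, 84.5 and 84.4 CPM in vehicle and 93.4, 86.8 and 94.4 in CePPy (0.11, SE 0.07, edgeR adjusted p = 0.431).

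The 8 ubiquitous V1 subunits had a median of -0.05, and 3 were higher and 5 lower. With 1 library left out the median ran from -0.115 without CePPy 1 to 0.006 without vehicle 3, so its direction turned. Their mean level, relative to vehicle, was 0.11, -0.12 and -0.09 in the CePPy libraries and -0.05, -0.05 and 0.10 in vehicle, so the groups overlapped. Atp6v1a, for the catalytic A subunit, gave the largest difference of the 8. It measured 320.0, 330.2 and 382 CPM in vehicle and 468, 343 and 442 in CePPy, with CePPy 2 within the vehicle range (log2 fold change 0.28, SE 0.13, edgeR adjusted p = 0.303). Atp6v1d, Atp6v1e1, Atp6v1f and Atp6v1h, of the rotor, stalk and regulatory parts of V1, ranged from -0.15 for Atp6v1f to 0.07 for Atp6v1e1 and overlapped between groups. The accessory subunits Atp6ap1 and Atp6ap2, which help assemble and route the pump, overlapped as well, with log2 fold changes of 0.02 (SE 0.08) and -0.06 (SE 0.10). The direction for Atp6v0a4, Atp6v1d, Atp6v1e1, Atp6v1h and Atp6ap1 turned with 1 library left out. Lysosomal genes, in whose membranes the ubiquitous pump works, had higher values for 3 and lower for 10 of 13 listed genes, with a median of -0.15. The granulin gene Grn measured 297 ± 24.3 and 226 ± 22.7 CPM (-0.40, SE 0.10, edgeR adjusted p = 0.13, DESeq2 adjusted p = 0.0157).

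The remaining rows matching the symbol pattern hold isoforms of other tissues and a neighbouring gene. Atp6v0e2, for an isoform abundant in brain, measured 33.3 to 36.6 CPM in vehicle and 34.0 to 39.6 in CePPy (0.11, SE 0.09). Atp6v1g2, for the neuronal G isoform, measured 2.17, 2.00 and 0.713 CPM in vehicle and 2.504, 3.62 and 2.03 in CePPy (0.74, SE 0.43, edgeR adjusted p = 0.387). CePPy 3 lay within the vehicle range, and vehicle 3 was far below the other vehicle libraries. The log2 fold change was 0.38 without vehicle 3 and 0.48 without CePPy 2. Of 6 neuron markers 3 were tested, 2 with higher and 1 with lower values, and their summed level was 8.50 to 12.0 CPM in vehicle and 8.87 to 9.60 in CePPy. Atp6v1e2, Atp6v1fnb and Atp6ap1l did not pass the filter. Atp6ap1l had 0 counts in all libraries, Atp6v1e2 had 4 counts, all in vehicle 2, and Atp6v1fnb, a neighbour of Atp6v1f, had 2 to 10 counts per library.

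Among bicarbonate and anion transporters, Slc4a9 separated the groups with the lowest p of all members. It encodes AE4, a basolateral transporter of type B intercalated cells (chromosome 18, 36528147 to 36556273, plus strand). It measured 18.2, 18.7 and 19.6 CPM in vehicle and 29.6, 23.5 and 27.3 in CePPy, and the vehicle libraries were close together. The difference was 0.51 log2 units (SE 0.11, edgeR adjusted p = 0.103), and DESeq2 (adjusted p = 0.00689) and limma-voom with sample weights (adjusted p = 0.044) called it. Slc26a4 encodes pendrin, the apical chloride-bicarbonate exchanger of type B cells (chromosome 12, 31519827 to 31559969, minus strand). It measured 32.2, 29.3 and 41.8 CPM in vehicle and 54.5, 44.8 and 40.2 in CePPy, with CePPy 3 below vehicle 3 (0.43, SE 0.16, edgeR adjusted p = 0.205).

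In type A cells, bicarbonate leaves through AE1, encoded by Slc4a1 (chromosome 11, 102348824 to 102366203, minus strand). Slc4a1 measured 11.6, 6.47 and 7.07 CPM in vehicle and 24.7, 13.0 and 13.97 in CePPy. All CePPy values exceeded vehicle 1, the highest vehicle library. On the log2 scale it differed by 1.04 (SE 0.31, edgeR adjusted p = 0.15, DESeq2 adjusted p = 0.0167), and it was 0.69 without CePPy 1. Red cell precursors also make Slc4a1. Of 11 erythroid markers 7 were tested, 1 higher and 6 lower. Their summed level was 301 to 369 CPM in vehicle and 283.7 to 409.8 in CePPy, so the groups overlapped. Slc26a7, for a basolateral chloride transporter of the medulla, was near the filter, at 0.668, 1.295 and 1.34 CPM in vehicle and 1.69, 1.09 and 1.5 in CePPy (0.37, SE 0.38, edgeR adjusted p = 0.62).

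The ammonia transporters differed from each other. Rhcg, the apical ammonia channel of the collecting duct (chromosome 7, 79593363 to 79617657, minus strand), measured 36.5, 44.4 and 43.7 CPM in vehicle and 92.4, 55.6 and 59.1 in CePPy. CePPy 1 was far above the other 2 CePPy libraries, which still exceeded all vehicle libraries. Its log2 fold change was 0.73 (SE 0.19, edgeR adjusted p = 0.13), DESeq2 called it (adjusted p = 0.00856), and without CePPy 1 it was 0.47. Its basolateral partner Rhbg measured 29.3, 22.8 and 21.3 CPM in vehicle and 30.1, 23.1 and 25.3 in CePPy, with only CePPy 1 outside the vehicle range (0.10, SE 0.15, edgeR adjusted p = 0.762). Exons of Rhbg overlap the annotated gene Gm38392 on the same strand.

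Of the regulators, Foxi1, the forkhead factor that specifies intercalated cells, measured 20.3, 17.0 and 20.5 CPM in vehicle and 23.1, 19.0 and 20.2 in CePPy. The groups overlapped, and differed by 0.11 in log2 (SE 0.12, edgeR adjusted p = 0.659). Insrr encodes a receptor that senses alkaline pH (chromosome 3, 87796951 to 87816101, plus strand). It measured 7.80, 8.00 and 8.91 CPM in vehicle and 17.4, 8.96 and 13.1 in CePPy. CePPy 2 exceeded vehicle 3 by less than 0.1 CPM. The log2 fold change was 0.68 (SE 0.23, edgeR adjusted p = 0.183), and it was 0.42 without CePPy 1. Without CePPy 2 it was 0.89 with an edgeR adjusted p of 0.0346. Hmx2, a homeobox gene of intercalated cells, measured 2.20, 2.59 and 3.74 CPM in vehicle and 5.37, 3.11 and 3.57 in CePPy, with overlap (0.50, SE 0.30, edgeR adjusted p = 0.394; 0.23 without CePPy 1).

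Genes listed as markers of intercalated cells outside the members, among them Slc8a1 and Adgrf5, were read beside these values. How far each is confined to intercalated cells in these kidneys was not tested. All 10 listed genes were tested, and 9 were higher, with a median of 0.43. An unadjusted edgeR p under 0.05 was reached by 6, all higher, and 5 did not overlap between groups, against the 9.65% and 12.3% of all genes given above. None passed over all genes, and DESeq2 called 0. Aqp6, a water channel of type A intercalated cell vesicles, measured 37.6 ± 7.39 CPM in vehicle and 50.6 ± 6.61 in CePPy (0.43, SE 0.16, edgeR adjusted p = 0.208). Parm1 had means of 9.27 ± 1.26 and 13.4 ± 3.07 CPM (0.53, SE 0.19, edgeR adjusted p = 0.202). Markers of principal cells, the neighbours of intercalated cells, had a median of 0.33, with 9 of 10 higher. Of these 10, 5 reached an unadjusted edgeR p under 0.05 and 4 did not overlap, all higher. None passed over all genes in edgeR. DESeq2 called 2 higher. It called 2.56% of its 20034 genes higher, and 508 of the 15416 genes tested in edgeR, which include these markers. The summed level of the principal cell markers was 411 to 512 CPM in vehicle and 570.2 to 700.5 in CePPy. That of the intercalated markers was 394 to 437 and 452 to 562. The part of cell number in the higher intercalated-cell values was not tested.

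The carbonic anhydrases gave both the largest difference of any member and one of the smallest. Car14, a membrane enzyme of the proximal tubule and thin limb (chromosome 3, 95897768 to 95904691, minus strand), measured 10.5, 9.89 and 11.4 CPM in vehicle and 67.9, 14.8 and 36.8 in CePPy. Every CePPy library was above vehicle, but CePPy 1 was over 4 times CePPy 2. The means were 10.6 ± 0.752 and 39.8 ± 26.7 CPM (SD, n = 3), or 1.91 on the log2 scale (SE 0.46, edgeR adjusted p = 0.117, DESeq2 adjusted p = 0.0278). It was 1.28 without CePPy 1 and 2.31 without CePPy 2, where the edgeR adjusted p was 0.0118. Its exons overlap those of Aph1a on the opposite strand, which measured 119 and 125 CPM (0.07, SE 0.07).

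Car4, a membrane-anchored enzyme of the proximal tubule and thick limb, measured 41.8, 48.7 and 36.1 CPM in vehicle and 137, 55.6 and 62.4 in CePPy. The groups did not overlap, and CePPy 1 was more than 2 times the next highest library. It differed by 1.01 in log2 (SE 0.32, edgeR adjusted p = 0.168), and by 0.49 without CePPy 1. Car2, the cytosolic enzyme of both intercalated and proximal cells (chromosome 3, 14886273 to 14900770, plus strand), measured 394, 406 and 383 CPM in vehicle and 508, 440 and 510.2 in CePPy. It was higher in each CePPy library by a smaller and more even margin (0.30, SE 0.09, edgeR adjusted p = 0.158, DESeq2 adjusted p = 0.0276). Car12, a membrane enzyme, measured 148, 123 and 154 CPM in vehicle and 253, 137 and 185 in CePPy, with CePPy 2 within the vehicle range (0.44, SE 0.21, edgeR adjusted p = 0.300). It was 0.19 without CePPy 1. Car15, a membrane-anchored enzyme, measured 95.9, 74.5 and 95.8 CPM in vehicle and 102, 76.2 and 97.8 in CePPy, with overlap (0.05, SE 0.14, edgeR adjusted p = 0.869).

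Slc4a4 encodes NBCe1, the sodium-bicarbonate cotransporter that returns bicarbonate from proximal tubule cells to the blood. It measured 471, 445 and 517 CPM in vehicle and 666, 460 and 616 in CePPy, with CePPy 2 within the vehicle range (0.28, SE 0.145, edgeR adjusted p = 0.334), and it was 0.17 without CePPy 1. All 11 proximal tubule markers listed were higher, with a median of 0.43, and their summed level was 14660 to 15950 CPM in vehicle and 15140 to 27770 in CePPy. The phosphate cotransporter gene Slc34a1 measured 1036, 1091 and 1160 CPM in vehicle and 3991, 1531 and 2270 in CePPy, the same order of CePPy libraries as Car14 and Car4. Tubular injury markers had lower values for 5 of 6, with a median of -0.73. Havcr1 measured 1180, 2466 and 1476 CPM in CePPy 1, 2 and 3 and 2853 to 2954 in vehicle. Vcam1 went the other way, at 52.8 ± 4.22 CPM in vehicle and 68.5 ± 21.2 in CePPy (0.38, SE 0.20, edgeR adjusted p = 0.353). The summed level of the 6 was 26840 to 27700 CPM in vehicle and 15850, 29910 and 23080 in CePPy 1, 2 and 3. CePPy 2 thus exceeded every vehicle library in this sum. The part of these shifts in the values of the proximal members was not tested.

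**Figure D4:**
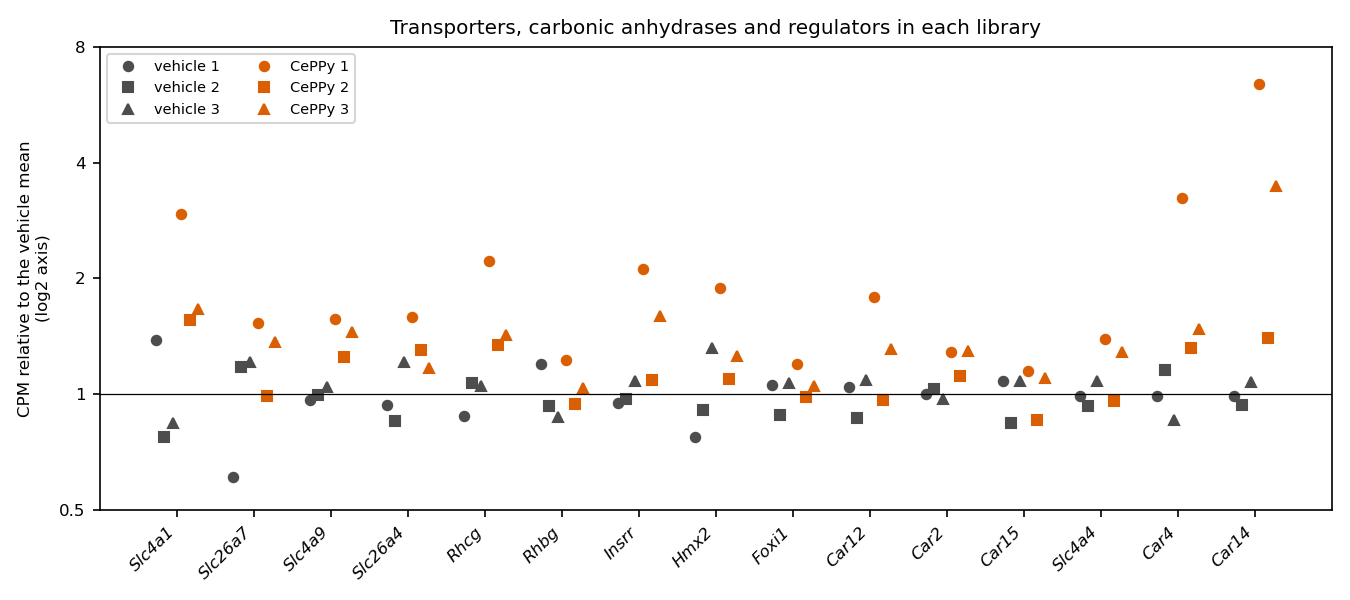
CPM relative to the mean of the vehicle libraries (vertical axis, log2 scale) of the 15 members that are not pump subunits, in each library. CePPy 1 (orange circle) is the highest library for 14 of the 15 and CePPy 2 (orange square) lies near vehicle for several, while Slc4a9 and Car2 are higher in all 3 CePPy libraries with little spread.

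Other genes of the same processes were read from lists. Of 28 further acid-base transport genes 24 were tested, 19 higher and 5 lower, with a median of 0.25, and DESeq2 called 4 of them, all higher. Over all 15416 genes tested in edgeR, 50.5% lay above 0, and DESeq2 called 508 of these higher. It called 2.56% of its 20034 genes higher. Bsnd, the barttin subunit of basolateral chloride channels in thick limb and intercalated cells, measured 17.9, 17.4 and 16.1 CPM in vehicle and 47.5, 22.8 and 37.2 in CePPy (1.06, SE 0.24, edgeR adjusted p = 0.11, DESeq2 adjusted p = 0.000698). Atp4a, the catalytic subunit of the gastric-type proton-potassium pump, another pump for acid in the collecting duct, measured 5.35, 6.65 and 6.80 CPM in vehicle and 21.2, 9.52 and 12.1 in CePPy. It was higher in each CePPy library (1.19, SE 0.29, edgeR adjusted p = 0.117, DESeq2 adjusted p = 0.00299). Slc9a2, a sodium-proton exchanger, averaged 25.0 ± 2.68 and 35.3 ± 5.58 CPM (0.50, SE 0.14, edgeR adjusted p = 0.139). The genes for assembly and regulation of the V-ATPase, with the a3 subunit gene Tcirg1, showed no common direction, as 8 of 15 were higher and 7 lower with a median of 0.00. Rogdi, of the complex that reassembles V1 with V0, measured 38.1 ± 2.28 and 52.4 ± 7.93 CPM (0.46, SE 0.12, edgeR adjusted p = 0.129, DESeq2 adjusted p = 0.0268). Dmxl1, of the same complex, had means of 57.4 ± 2.00 and 72.7 ± 8.84 CPM (0.34, SE 0.10, edgeR adjusted p = 0.148). Tmem199, an assembly factor of the V0 sector, was lower, at 21.9 ± 1.06 and 17.9 ± 1.30 CPM (-0.29, SE 0.10, edgeR adjusted p = 0.187).

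The other carbonic anhydrases and the genes of ammonia production did not share a direction either. Of 11 further carbonic anhydrases 7 were tested, 3 higher and 4 lower. Car3, a cytosolic form abundant in muscle and fat, measured 4.68, 9.74 and 6.39 CPM in vehicle and 39.7, 18.0 and 21.8 in CePPy (1.94, SE 0.36, edgeR adjusted p = 0.0883, DESeq2 adjusted p = 1.47e-06). Car13, another cytosolic form, had means of 21.5 ± 2.05 and 14.8 ± 4.21 CPM (-0.53, SE 0.20, edgeR adjusted p = 0.206). Of 10 genes of ammonia production, 7 were higher and 3 lower, with a median of 0.16. Slc38a3, the glutamine transporter that feeds it, measured 19.0, 17.3 and 15.7 CPM in vehicle and 39.8, 23.7 and 43.3 in CePPy (1.04, SE 0.21, edgeR adjusted p = 0.102, DESeq2 adjusted p = 0.000291). Got2, a mitochondrial aminotransferase, was lower, at 390 ± 3.77 and 329 ± 17.0 CPM (-0.25, SE 0.08, edgeR adjusted p = 0.172, DESeq2 adjusted p = 0.0467).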

How the data were processed

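The authors deposited 1 table of raw counts for all genes, which was used unchanged. The submitters' processing notes name TopHat2, Cufflinks, DESeq and GRCm38. The counting program, strand use and annotation release are not stated there or in the labels. Columns were matched to libraries, and groups and numbers taken, from the labels. Rows without a gene name (2995 NewGene loci, 0.579% to 0.901% of counts) were kept in the fit as genes. All 41 members matched GENCODE M21 by identifier and symbol, which gave coordinates and exon lengths, and 12 overlap exons of another gene.

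After filterByExpr and TMM scaling, groups were compared in edgeR 4.0.16 (R 4.3.3) by its quasi-likelihood test. The model held treatment alone, leaving 4 residual degrees of freedom. Benjamini-Hochberg adjustment ran over the 15416 genes tested, and calls required an adjusted p under 0.05. Alternatives used DESeq2 1.42.0, limma 3.58.1, other scalings and filters, a replicate block and each library left out. The unblocked edgeR, DESeq2 and limma fits to all libraries were tested on simulated data. Within-library ratios used log2 CPM with a prior count of 2. Within each group, library pairs differed by more than sampling noise (chi-square per degree of freedom from 19.7 to 106).

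The members and gene lists were chosen with earlier results of these data known. Named genes were the 5 restricted subunits, their paralogs, the 15 members named singly, the 3 other ubiquitous subunits with the largest change, and up to 4 genes a list by lowest p. Atp6v0e and Atp6v0a2 were added after their values were seen.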

Additional observations from a re-analysis of the deposited data

How the results depend on the processing

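With another tool or filter, genes called over all genes went from 1 to 993 (DESeq2), 352 (limma-voom with sample weights) and 63 (no filter on low counts). Members called went from 0 to 8 with DESeq2 and 2 with sample weights. With each library left out, edgeR called 0 to 811 genes and 0 to 6 members. The highest of each came without CePPy 2, where Rhcg, Slc4a9, Car14, Atp6v1b1, Atp6v1c2 and Insrr passed and 2.98% of genes were called higher. The cause was not tested. The difference between restricted and ubiquitous subunits was 0.29 to 0.44 with a library left out and 0.32 without Atp6v0d2. The 5 paralog ratios kept their sign in every such setting. The median of the ubiquitous V0 subunits was -0.280 to -0.182, the latter without CePPy 3.

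Fold changes near 0 changed sign. With a library left out, Atp6ap1 ranged from -0.029 to 0.071, Atp6v0a4 from -0.014 to 0.112, Atp6v1d from -0.093 to 0.067, Atp6v1e1 from -0.080 to 0.166, Atp6v1h from -0.060 to 0.040, Car15 from -0.058 to 0.171 and Rhbg from -0.013 to 0.245. With total count scaling Atp6ap1 was -0.004 and Atp6v1d -0.015, and with sample weights Atp6v1d was -0.054 and Atp6v1e1 -0.007.

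With a replicate block edgeR called 0 genes and 0 members, and the difference between the subunit groups was 0.353. Same-numbered libraries deviated from their group means with correlations of -0.15, 0.0978 and -0.021 across genes, so the numbers were not taken to pair samples.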
